A study of Rattus norvegicus with 54 samples.

Results

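Serpins were followed in the liver and the skeletal muscle of Wistar rats around birth. The members were the probe sets of the array whose single gene symbol begins with Serpin. There were 36 of them, 1 for each of 36 genes, of 15310 probe sets that carry a single symbol. By the letter after Serpin, which names the clade of the family, 13 belonged to clade A, 14 to clade B, 2 to clade F, 2 to clade I, and 1 each to clades C, D, E, G and H. Liver RNA came from foetuses on days 16, 20 and 22 of gestation (F16, F20 and F22, day 22 being the last before birth), from newborns on days 1 and 4 after birth (P1 and P4) and from adults (P90), with 4 arrays at each age. Hind limb skeletal muscle was taken at F16, F18, F20, F22, P1 and P4, with 5 arrays at each age. No treatment is given for any animal, foetuses were delivered by Caesarean section, and each array is labelled as a biological replicate. The labels and methods do not tell whether animals of an age were littermates, so the p-values measure the spread between these arrays.

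Serpins are proteins of a common fold with an exposed reactive loop. In the inhibitory members a target protease cuts that loop, the loop folds into the body of the serpin, and the protease is dragged along and trapped in a covalent complex. Several members have lost this activity and serve as hormone carriers or as a chaperone. Hepatocytes secrete most of the clade A, C, D, F and G members of blood plasma, where they restrain coagulation, fibrinolysis, complement and the elastase of neutrophils, while most clade B members stay inside cells of blood, skin and other epithelia.

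Levels are robust multi-array average (RMA) signals on the log2 scale, so a difference of 1 is a factor of 2. Each tissue was analysed on its own, and the level of a probe set is not set against that of another probe set, because probe sets differ in binding. The medians of the liver arrays lay between 7.06 and 7.16 and those of the muscle arrays between 7.98 and 8.07. Defining markers of both tissues were present: albumin (Alb) had time point means between 13.70 and 13.86 in the liver, and the means of the muscle creatine kinase gene Ckm rose from 9.07 in the F16 muscle samples to 13.46 in those of P4. The muscle samples also held signal of keratinocyte and, in single arrays, of hepatocyte markers, and liver replicate 1 at F22 held signal of muscle fibre markers, with a log2 summed signal of 13.28 against 10.07 to 11.67 in the other F22 liver arrays. The keratinocyte and hepatocyte values are given beside the serpins that moved with them. The muscle fibre signal of that liver array was not set against any serpin.

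The sequences below are the 250 bases before the transcription start of 3 neighbouring clade A genes of chromosome 6, shown because Serpina3n and Serpina3l were high in the liver by F22 and Serpina3m was not until after P4. They come from the RefSeq promoter table on build GRCr8. Serpina3n lies at chr6:129088142-129088391 on the plus strand, Serpina3l at chr6:129062956-129063205 on the plus strand and Serpina3m at chr6:128836840-128837089 on the minus strand. Capitals mark the match of the motif TTCNNNGAA, the palindromic core bound by STAT factors, in Serpina3n and Serpina3l, and the 9 aligned bases in Serpina3m.
Serpina3n: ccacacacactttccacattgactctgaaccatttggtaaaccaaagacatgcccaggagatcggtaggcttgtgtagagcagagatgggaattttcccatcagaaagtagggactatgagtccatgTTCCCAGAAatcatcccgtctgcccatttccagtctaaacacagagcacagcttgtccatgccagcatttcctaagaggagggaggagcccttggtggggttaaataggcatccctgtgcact
Serpina3l: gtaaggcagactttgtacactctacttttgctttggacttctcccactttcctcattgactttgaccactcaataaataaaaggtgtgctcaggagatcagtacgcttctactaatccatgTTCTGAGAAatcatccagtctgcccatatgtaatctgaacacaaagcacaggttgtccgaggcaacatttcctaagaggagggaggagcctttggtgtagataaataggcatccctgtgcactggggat
Serpina3m: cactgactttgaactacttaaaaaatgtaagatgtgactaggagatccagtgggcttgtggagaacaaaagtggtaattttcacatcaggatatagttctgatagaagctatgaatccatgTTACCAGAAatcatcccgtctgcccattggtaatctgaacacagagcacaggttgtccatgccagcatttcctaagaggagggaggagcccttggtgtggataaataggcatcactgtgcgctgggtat

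Over the 300-base windows of the table, which add 50 bases after the start, the Serpina3n and Serpina3m promoters were identical at 83.8% of 284 aligned bases, Serpina3n and Serpina3l at 84.0% of 257, and Serpina3l and Serpina3m at 74.2% of 291. Serpina3n matched the motif 123 to 115 bases before its start and Serpina3l 129 to 121 bases before its start. Counted from the first base of the Serpina3n match, the aligned bases of Serpina3m carried the substitution C3A, which lies in a fixed base of the motif, and those of Serpina3l carried C4T and C5G, which lie in its free middle. The motif reads the same on both strands and was chosen after the levels had been seen. It was present in 8.87% of the 33469 promoter windows of the table and in 3 of the 29 members that had a window there, the third being Serpinb6a. No window was listed for Serpina3c, Serpina6, Serpina10, Serpinb8, Serpinb12, Serpind1 and Serping1. The HNF1 motif of liver genes (GTTAAT, 1 free base and ATTAAC, up to 2 mismatches, both strands) was found in 1 member, Serpina4, with 2 mismatches, and in 1.19% of all windows. A match is a description of these letters only.

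In the liver, 29 of the 36 serpins differed over the 6 ages (moderated F-test, adjusted p at most 0.05), beside 84.3% of all probe sets tested. From F16 to P4, 18 serpins rose and 3 fell, with 23.1% of all probe sets rising and 35.0% falling, and their median change was 0.24 on the log2 scale against -0.03 over all probe sets. The step with the most serpins rising before birth was F20 to F22, when 14 of 36 (38.9%) rose and 1 fell, beside 15.3% and 21.6% of all probe sets. From F22 to P1, 9 (25.0%) rose and 4 (11.1%) fell, beside 14.8% and 21.9%. From F16 to F20, 8 rose and 5 fell, beside 9.22% and 13.2%, and from P1 to P4, 9 rose and 4 fell, beside 4.87% and 6.10%. Between P4 and the adult, 10 rose and 9 fell, which are 27.8% and 25.0% of the members beside 28.8% and 27.1% of all probe sets. The adult set against F16 had 17 serpins higher and 7 lower, beside 37.9% and 35.5%.

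**Figure D1:**
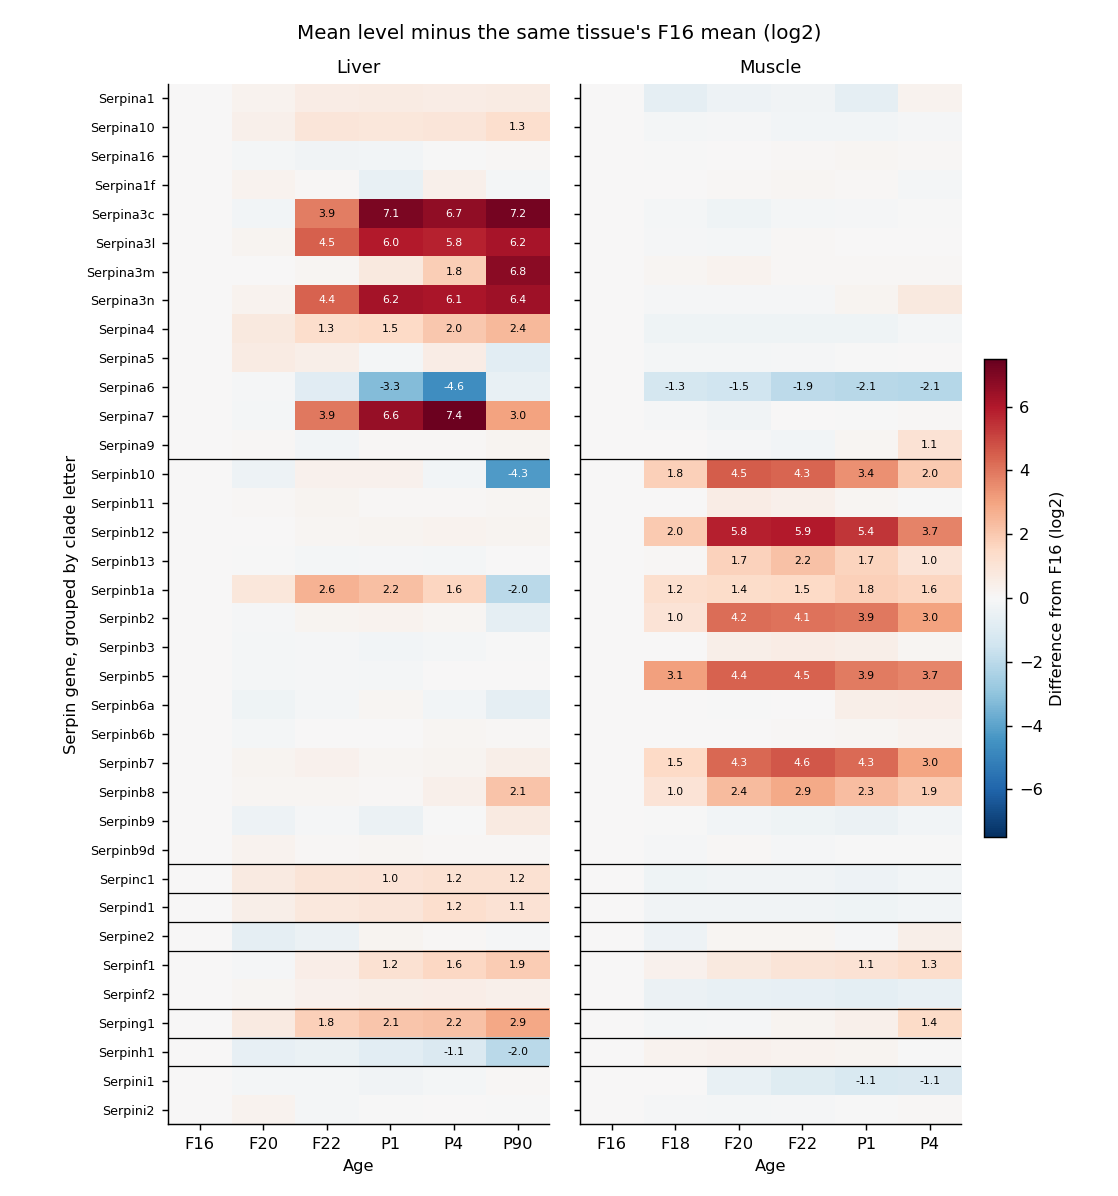
Each row is a serpin and each column an age of the liver (left) or the muscle (right); colour shows the time point mean minus the F16 mean of the same tissue on the log2 scale, and differences of 1 or more in size are printed. In the liver the widest differences lie in clade A, up to 7.4 for Serpina7 at P4, and in the muscle samples they lie in clade B, up to 5.9 for Serpinb12 at F22.

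Serpina3n, Serpina3c and Serpina3l rose steeply in the liver between F20 and P1, and Serpina3m rose later. They are the rodent relatives of human α1-antichymotrypsin, a plasma inhibitor of chymotrypsin-like proteases and an acute phase protein. The 4 measured members, Serpina3c, Serpina3l, Serpina3m and Serpina3n, are neighbours on chromosome 6 and similar in sequence, and whether their probe sets share targets was not tested. Serpina3n read 7.31, 6.98, 7.42 and 7.10 at F16, 7.12, 7.47, 7.99 and 7.33 at F20, 12.33, 10.69, 10.46 and 13.06 at F22, 13.32, 13.51, 13.48 and 13.38 at P1, 13.35, 13.40, 13.29 and 13.36 at P4, and 13.56, 13.58, 13.57 and 13.59 at P90. All F22 arrays were above all F20 arrays, and the F22 arrays were spread widely, from 10.46 to 13.06. The level of Serpina3n rose by 4.16 ± 0.35 (adjusted p = 4.8e-09) from F20 to F22, where the ± is the standard error of the fit, and by 1.79 ± 0.35 (adjusted p = 2.4e-04) from F22 to P1. The difference between P4 and the adult was 0.22 ± 0.35 (adjusted p = 0.6016).

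Serpina3c followed with 5.58, 5.32, 5.57 and 5.56 at F16, 5.34, 5.26, 5.28 and 5.37 at F20, 10.81, 9.34, 9.22 and 8.09 at F22, 12.71, 12.58, 12.45 and 12.65 at P1, 12.29, 12.30, 12.01 and 12.06 at P4, and 12.70, 12.73, 12.73 and 12.69 at P90. The F16 and F20 arrays overlapped and all F22 arrays were higher, but replicate 4 at F22, the array with the highest Serpina3n signal, had the lowest Serpina3c signal of that age. The rise was 4.05 ± 0.30 (adjusted p = 7.2e-10) from F20 to F22 and 3.23 ± 0.30 (adjusted p = 1.3e-08) from F22 to P1. The difference from P4 to the adult was 0.55 ± 0.30 (adjusted p = 0.1239). It passed the threshold when F22 replicate 1 (adjusted p = 0.0081) or F22 replicate 4 (adjusted p = 0.0296) was left out, with the same value of 0.55. Serpina3l read 5.86, 5.64, 5.71 and 5.34 at F16, 5.97, 5.87, 5.82 and 5.61 at F20, 10.54, 9.88, 10.03 and 10.14 at F22, 11.67, 11.63, 11.59 and 11.54 at P1, 11.44, 11.50, 11.30 and 11.31 at P4, and 11.78, 11.83, 11.91 and 11.86 at P90. Its F22 arrays lay between 9.88 and 10.54, all above those of F20 and below those of P1. Serpina3l rose by 4.33 ± 0.11 (adjusted p = 6.1e-18) from F20 to F22, by 1.46 ± 0.11 (adjusted p = 7.1e-10) to P1 and by 0.46 ± 0.11 (adjusted p = 0.0015) from P4 to the adult.

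Serpina3m was the late member. Its arrays read 4.97, 4.89, 5.02 and 4.86 at F16, 4.74, 4.82, 5.20 and 5.14 at F20, 5.004, 5.34, 4.64 and 5.28 at F22, 5.37, 5.78, 5.78 and 5.84 at P1, 7.45, 7.64, 6.04 and 6.003 at P4, and 11.76, 11.63, 11.74 and 11.79 at P90. The foetal arrays overlapped, the P4 arrays were uneven, with replicates 1 and 2 above replicates 3 and 4, and the adult arrays stood above all others. From F16 to P4 it rose by 1.84 ± 0.26 (adjusted p = 1.6e-06) and from P4 to P90 by 4.95 ± 0.26 (adjusted p = 1.3e-13). The change from F22 to P1 was 0.63 ± 0.26 (adjusted p = 0.0669). Without P1 replicate 1 it was 0.73 (adjusted p = 0.0435), and it kept its value and passed the threshold without P4 replicates 1, 2, 3 or 4 (adjusted p between 0.0300 and 0.0465). Between F20 and F22, when the other 3 members rose, the difference for Serpina3m was 0.09 ± 0.26 (adjusted p = 0.8377).

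Acute phase proteins of the liver rose from F20 to F22 and moved unevenly from F22 to P1. Of the 14 measured of 15 listed, 14 rose from F16 to P4 with a median of 3.65, and 14 rose from F20 to F22 with a median of 1.29. The largest changes from F16 to P4 were those of serum amyloid P (Apcs, 6.88), haptoglobin (Hp, 5.56), ceruloplasmin (Cp, 5.11) and the lipopolysaccharide binding protein (Lbp, 4.39). In F22 replicate 4, the array with the highest Serpina3n signal, Lbp read 12.24 against 10.76 to 11.14 in the other F22 arrays, lipocalin 2 (Lcn2) read 11.75 against 10.20 to 10.87, and orosomucoid (Orm1) read 7.31 against 6.16 to 6.74. Crp was the lowest of its age in that array, at 9.88 against 10.03 to 10.22. The part of these array differences in the Serpina3n levels was not tested. From F22 to P1, Orm1, Apcs, Lbp, Crp, Hp and Itih4 rose. At that step A2m changed by -0.19 (adjusted p = 0.0392), and the other measured genes of the list were not called. Between P4 and the adult A2m changed by -5.73 (adjusted p = 4.7e-25).

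The hormone carriers Serpina6 and Serpina7 moved in opposite directions around birth. Serpina6 is corticosteroid-binding globulin, which carries glucocorticoids in plasma. Its arrays read 13.28, 13.24, 13.29 and 13.30 at F16, 13.19, 13.21, 13.23 and 13.14 at F20, 12.36, 12.21, 12.61 and 12.56 at F22, 11.08, 9.33, 9.84 and 9.76 at P1, 8.55, 8.48, 8.64 and 8.92 at P4, and 12.72, 12.72, 12.74 and 12.72 at P90. The ages from F20 to P4 did not overlap, P1 replicate 1 stood above the other P1 arrays, and the adult arrays lay above all F22, P1 and P4 arrays and below all F16 and F20 arrays. Serpina6 fell by 0.76 ± 0.21 (adjusted p = 0.0061) from F20 to F22, fell by 2.43 ± 0.21 (adjusted p = 4.8e-09) from F22 to P1 and fell by 1.35 ± 0.21 (adjusted p = 2.0e-04) from P1 to P4. It rose by 4.08 ± 0.21 (adjusted p = 8.4e-14) between P4 and the adult, and the adult minus F16 difference was -0.55 ± 0.21 (adjusted p = 0.0228). Its mean at P4 was 8.65 ± 0.19 (SD, n = 4) against 13.28 ± 0.03 at F16 and 12.73 ± 0.01 in the adult.

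Serpina7 is thyroxine-binding globulin, which carries thyroid hormone in plasma. It read 4.43, 5.10, 4.43 and 4.75 at F16, 4.19, 4.45, 4.45 and 5.11 at F20, 9.06, 9.92, 7.53 and 7.96 at F22, 10.66, 11.31, 11.50 and 11.45 at P1, 11.99, 12.11, 11.996 and 12.06 at P4, and 7.60, 7.67, 7.74 and 7.86 at P90. No F22 array overlapped an F20 or a P1 array, and F22 replicate 2 was the highest of its age. The rise was 4.07 ± 0.33 (adjusted p = 2.8e-09) from F20 to F22 and 2.61 ± 0.33 (adjusted p = 1.1e-06) from F22 to P1, and from F16 to P4 it came to 7.36 ± 0.33 (adjusted p = 6.8e-15), the largest change of the 36 serpins between those ages in the liver. The further change from P1 to P4 was 0.81 ± 0.33 (adjusted p = 0.1259), and it passed the threshold without F22 replicate 2 (adjusted p = 0.0381). Serpina7 then fell by 4.32 ± 0.33 (adjusted p = 1.0e-10) in the adult, where its mean of 7.72 ± 0.11 (SD, n = 4) stayed above that of F16 by 3.04 ± 0.33 (adjusted p = 1.7e-08).

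**Figure D2:**
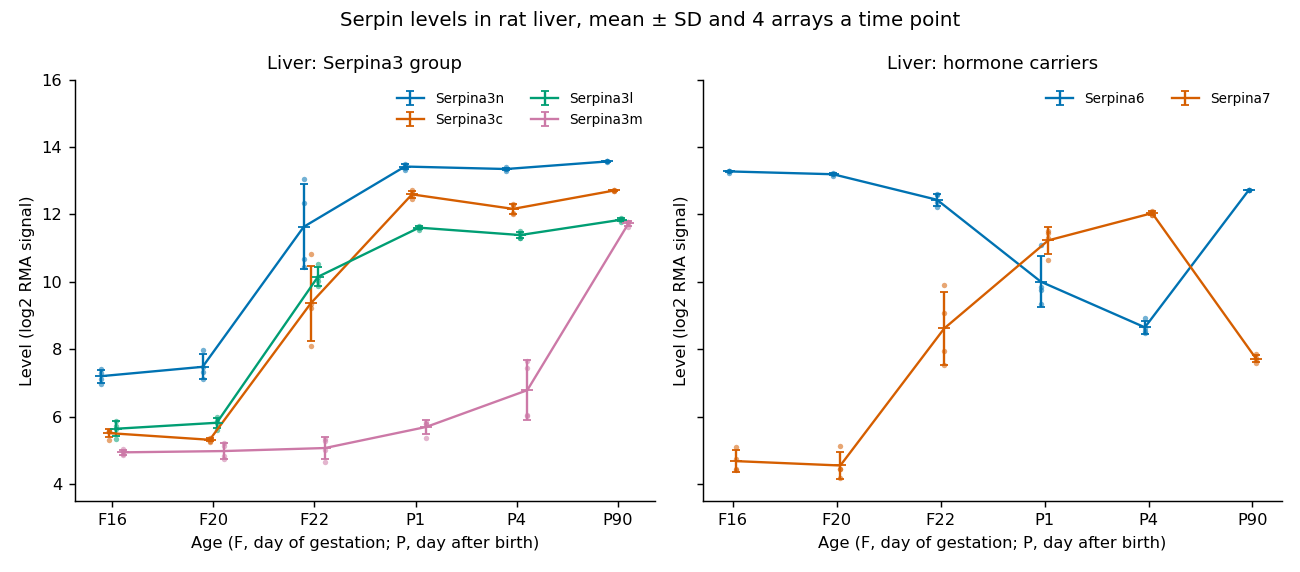
Levels in the liver (log2 RMA signal) by age for the 4 Serpina3 genes (left) and for Serpina6 and Serpina7 (right); small points are the 4 arrays of an age and bars are the mean ± SD. Serpina3n, Serpina3c, Serpina3l and Serpina7 are higher in every F22 array than in any F20 array, Serpina3m is high in the adult alone, and the lines of Serpina6 and Serpina7 run in opposite directions from F20 to P4 and again to P90.

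Plasma inhibitors of coagulation, fibrinolysis and complement rose from F16 on. Antithrombin (Serpinc1) blocks thrombin and factor Xa. It read 11.83, 11.86, 11.85 and 11.71 at F16, 12.51, 12.58, 12.38 and 12.55 at F20, 12.82, 12.77, 12.77 and 12.78 at F22, 12.82, 12.76, 12.87 and 12.82 at P1, 12.99, 12.98, 13.01 and 12.96 at P4, and 12.95, 12.94, 13.002 and 12.98 at P90. The arrays of F16, F20 and F22 did not overlap, and those of P4 and P90 did. Serpinc1 rose by 0.69 ± 0.05 (adjusted p = 2.8e-10) from F16 to F20 and by 0.28 ± 0.05 (adjusted p = 4.4e-05) from F20 to F22, and by 1.17 ± 0.05 (adjusted p = 1.2e-15) in all to P4. Heparin cofactor II (Serpind1), another inhibitor of thrombin, read 11.29, 11.37, 11.34 and 11.20 at F16, 11.76, 11.74, 11.66 and 11.76 at F20, 12.10, 12.09, 12.12 and 12.01 at F22, 12.33, 12.08, 12.22 and 12.17 at P1, 12.56, 12.56, 12.55 and 12.53 at P4, and 12.36, 12.43, 12.40 and 12.42 at P90. No array of F16, F20 or F22 overlapped the next age. Serpind1 rose by 0.43 ± 0.05 (adjusted p = 1.6e-06), then by 0.35 ± 0.05 (adjusted p = 9.6e-06), and by 0.35 ± 0.05 (adjusted p = 1.2e-04) from P1 to P4.

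Serping1, the C1 inhibitor, restrains the first proteases of complement and plasma kallikrein. Its arrays read 9.79, 10.15, 9.84 and 9.93 at F16, 10.61, 10.69, 10.40 and 10.74 at F20, 11.66, 11.59, 11.45 and 12.07 at F22, 11.92, 11.94, 12.04 and 12.13 at P1, 12.14, 11.92, 12.20 and 12.29 at P4, and 12.83, 12.79, 12.91 and 12.86 at P90. F22 replicate 4 reached the P1 levels, and the adult arrays were above all earlier arrays. The gene rose by 0.69 ± 0.11 (adjusted p = 6.2e-05) from F16 to F20, by 1.08 ± 0.11 (adjusted p = 6.1e-08) from F20 to F22 and by 0.71 ± 0.11 (adjusted p = 7.2e-06) from P4 to P90. With Serping1 rising by 2.21 from F16 to P4, its targets rose too: C1s by 2.34, C1r by 1.95, plasma kallikrein (Klkb1) by 4.37 and factor XII (F12) by 3.04.

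Kallistatin (Serpina4), an inhibitor of tissue kallikrein, read 9.84, 9.98, 10.01 and 9.76 at F16, 10.62, 10.67, 10.52 and 10.69 at F20, 11.23, 11.13, 11.27 and 11.14 at F22, 11.32, 11.39, 11.42 and 11.56 at P1, 11.99, 11.96, 11.82 and 11.93 at P4, and 12.34, 12.34, 12.35 and 12.32 at P90. Its mean went up at each of the 5 steps and all of them passed the threshold, with 0.72 ± 0.06 (adjusted p = 1.1e-08), 0.57 ± 0.06 (adjusted p = 2.2e-07), 0.23 ± 0.06 (adjusted p = 0.0052), 0.50 ± 0.06 (adjusted p = 1.6e-05) and 0.41 ± 0.06 (adjusted p = 5.9e-06) in order of age. The α2-antiplasmin gene Serpinf2, whose product blocks plasmin, read 12.08, 12.24, 12.13 and 12.07 at F16, 12.36, 12.36, 12.15 and 12.28 at F20, 12.44, 12.52, 12.42 and 12.52 at F22, 12.53, 12.47, 12.59 and 12.67 at P1, 12.64, 12.56, 12.59 and 12.67 at P4, and 12.55, 12.52, 12.50 and 12.51 at P90. The F16 and F20 arrays overlapped, and from F16 to P4 it rose by 0.48 ± 0.06 (adjusted p = 6.5e-08). Serpinf1 (pigment epithelium-derived factor), a secreted serpin without known protease target that curbs vessel growth, read 10.97, 11.02, 10.98 and 10.85 at F16, 10.92, 10.95, 10.73 and 10.88 at F20, 11.50, 11.64, 11.27 and 11.49 at F22, 11.80, 12.11, 12.24 and 12.33 at P1, 12.51, 12.57, 12.57 and 12.47 at P4, and 12.88, 12.87, 12.82 and 12.81 at P90. Its F16 and F20 arrays overlapped and each later age was higher than the one before in every array. It rose by 0.60 ± 0.09 (adjusted p = 7.6e-06), 0.65 ± 0.09 (adjusted p = 2.7e-06), 0.41 ± 0.09 (adjusted p = 0.0033) and 0.32 ± 0.09 (adjusted p = 0.0038) in the last 4 steps.

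Other plasma serpins of clade A had narrower ranges over the ages. The gene of α1-antitrypsin (Serpina1), the inhibitor of neutrophil elastase, was close to the top of the signal range, with a mean of 12.74 ± 0.04 at F16 and 13.31 ± 0.04 at P4, a rise of 0.57 ± 0.04 (adjusted p = 1.8e-11). The protein Z-dependent inhibitor gene Serpina10 rose by 0.89 ± 0.08 (adjusted p = 5.5e-10) from F16 to P4 and by 0.37 ± 0.08 (adjusted p = 3.2e-04) from P4 to P90. Serpina5, the protein C inhibitor, fell by 1.35 ± 0.22 (adjusted p = 1.9e-05) between P4 and the adult, from 7.06 ± 0.62 to 5.72 ± 0.13. Serpina1f and Serpina16 passed the F-test with time point means between 6.38 and 7.29 and between 5.13 and 5.53, and Serpina9 did not pass it.

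The proteases and other inhibitors of the same cascades moved with these serpins in the liver. Of 22 measured proteases that serpins inhibit, 21 rose and 1 fell from F16 to P4, with a median of 1.68. The 4 largest changes were those of Klkb1 and F12, given above, and of the coagulation factors VII (F7, 2.81) and XI (F11, 2.50), and the member that fell was tissue plasminogen activator (Plat, -0.57). Of 25 other protease inhibitors, 18 rose and 3 fell with a median of 1.03, led by murinoglobulins (Mug1, 7.75, and Mug2, 6.41) and the inter-α-trypsin inhibitor chains Itih4 (4.26) and Itih3 (3.89). The 3 that fell were Spint1, an inhibitor of hepatocyte growth factor activator (-2.53), and the metalloproteinase inhibitors Timp1 (-0.74) and Timp3 (-0.50). Of 12 binding partners and receptors of serpins, 7 rose and 1, Lrp2 (-0.58), fell, with a median of 0.53. Among those that rose, protein C (Proc) changed by 1.95, vitronectin (Vtn) by 1.83, the angiotensin receptor gene Agtr1a by 1.76 and the receptor Lrp1, which clears serpin-protease complexes, by 1.39. All 12 hepatocyte markers rose as well, with a median of 0.74. In a sample of whole liver, a larger share of hepatocytes and more RNA in each of them cannot be told apart.

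**Figure D3:**
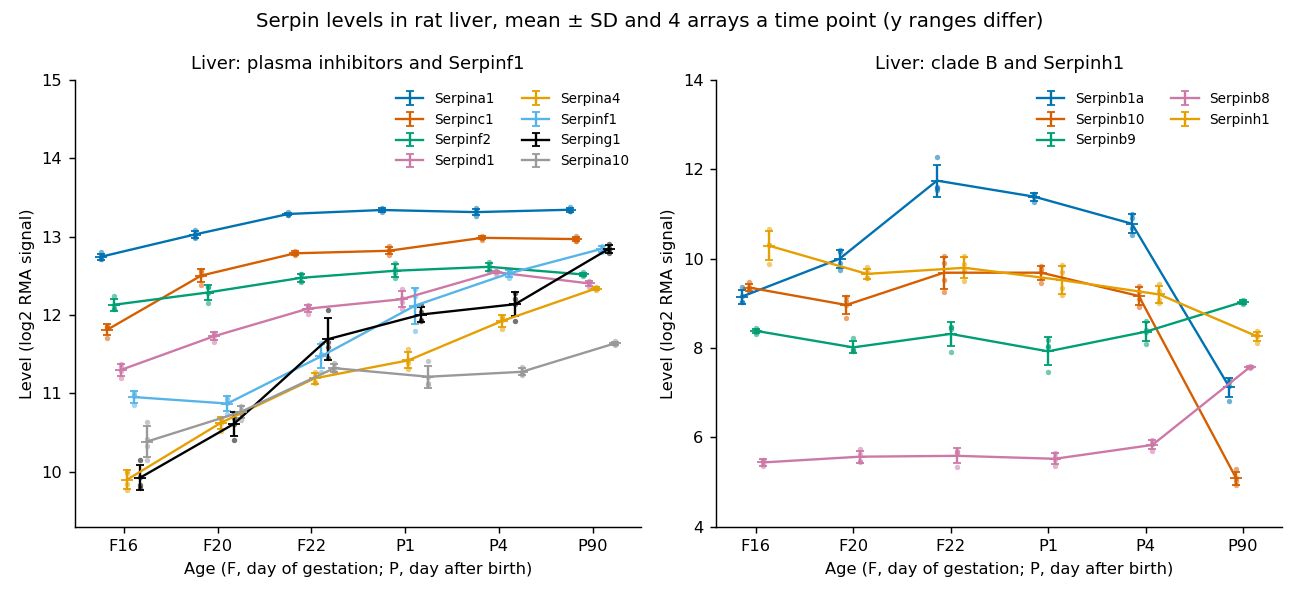
Levels in the liver (log2 RMA signal) by age for plasma serpins (left) and for clade B serpins and Serpinh1 (right); small points are the 4 arrays of an age and bars are the mean ± SD. Serpinc1 and Serping1 gain more from F16 to F22 than afterwards, whereas Serpinb1a and Serpinb10 are lower in every adult array than in any earlier array.

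Serpinb1a and Serpinb10 fell in the liver between P4 and the adult, as did the summed signals of neutrophil granule and erythroid markers. The log2 sums of macrophage markers overlapped, at 12.95 to 13.59 at P4 and 12.87 to 13.07 at P90. Serpinb1a, the leukocyte elastase inhibitor of neutrophils and other myeloid cells, read 9.16, 9.04, 9.37 and 9.03 at F16, 9.75, 10.18, 9.90 and 10.15 at F20, 11.57, 11.60, 11.52 and 12.28 at F22, 11.44, 11.45, 11.26 and 11.38 at P1, 10.99, 10.52, 10.91 and 10.69 at P4, and 7.24, 7.15, 7.28 and 6.81 at P90. Its F22 arrays were the highest, replicate 4 at F22 stood apart at 12.28, and the adult arrays lay below all others. It rose by 0.85 ± 0.15 (adjusted p = 1.6e-04) and 1.75 ± 0.15 (adjusted p = 3.9e-09) up to F22, and fell by 0.60 ± 0.15 (adjusted p = 0.0084) from P1 to P4 and fell by 3.66 ± 0.15 (adjusted p = 5.8e-16) to the adult. Serpinb10 (bomapin), a serpin of myeloid precursors, read 9.48, 9.36, 9.29 and 9.28 at F16, 8.97, 9.15, 8.67 and 9.06 at F20, 9.25, 9.90, 9.53 and 10.05 at F22, 9.69, 9.46, 9.82 and 9.76 at P1, 9.10, 9.38, 9.25 and 8.92 at P4, and 5.29, 5.01, 5.09 and 4.94 at P90. The foetal and newborn arrays lay between 8.67 and 10.05 and the adult arrays between 4.94 and 5.29. It fell by 0.39 ± 0.14 (adjusted p = 0.0466) from F16 to F20, rose by 0.72 ± 0.14 (adjusted p = 2.1e-04) from F20 to F22, fell by 0.52 ± 0.14 (adjusted p = 0.0170) from P1 to P4 and fell by 4.08 ± 0.14 (adjusted p = 3.2e-17) between P4 and P90. The first of these falls was not called without F20 replicate 3 (-0.29, adjusted p = 0.1657) or without any 1 of several other arrays, and that from P1 to P4 was not called without P4 replicate 4 (-0.44, adjusted p = 0.07). The difference from F16 to P4 was -0.19 ± 0.14 (adjusted p = 0.2633).

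Neutrophil granule genes rose up to F22, as Serpinb1a did, while Serpinb10 fell at the first of these steps. From F16 to F20, 9 of the 10 measured granule genes rose, with a median of 1.23. The log2 of their summed signal was 11.17 to 11.54 at F16, 12.08 to 12.54 at F20, 13.78 to 14.38 at F22, 13.91 to 14.53 at P1, 13.92 to 14.01 at P4 and 11.42 to 11.46 at P90. F22 replicate 4, where Serpinb1a and Serpinb10 were highest, had the highest sum of its age. All 10 rose from F16 to P4, with a median of 2.56, and 8 fell from P4 to P90 with a median of -3.24, and myeloperoxidase (Mpo) went from a mean of 10.03 at F16 to 11.73 at F22 and 6.49 at P90, Elane from 8.16 to 10.83 and 7.60, and Prtn3 from 6.77 to 8.77 and 7.03. Erythroid markers fell over the same span, from a log2 sum of 15.69 to 15.73 at F16 to 11.91 to 12.11 at P90. The part of these cells in the clade B levels was not tested.

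Serpinb8, an intracellular inhibitor of furin, was highest in the adult. It read 5.51, 5.36, 5.40 and 5.49 at F16, 5.62, 5.47, 5.45 and 5.73 at F20, 5.63, 5.34, 5.68 and 5.70 at F22, 5.57, 5.65, 5.36 and 5.50 at P1, 5.93, 5.86, 5.85 and 5.69 at P4, and 7.57, 7.55, 7.57 and 7.60 at P90. The ages up to P1 overlapped and the adult arrays, at 7.55 to 7.60, stood above all others, of which the highest read 5.93. The rise was 0.31 ± 0.08 (adjusted p = 0.0139) from P1 to P4 and 1.74 ± 0.08 (adjusted p = 9.6e-15) from P4 to P90. Serpinb9, which protects lymphocytes from granzyme B, was also highest in the adult, rising from 8.36 ± 0.22 at P4 by 0.67 ± 0.13 (adjusted p = 1.7e-04). The cytotoxic lymphocyte markers stood at log2 sums of 10.88 to 11.13 at P4 and 9.996 to 10.31 at P90, and of these 10 genes 7 rose and 2 fell between those ages. Serpinb6a fell by 0.47 ± 0.07 (adjusted p = 1.4e-05) from P4 to P90. Its change from F16 to P4, -0.19 ± 0.07 (adjusted p = 0.0319), missed the threshold without F16 replicate 1 (-0.17, adjusted p = 0.0900), F16 replicate 4 (-0.18, 0.0658), P4 replicate 3 (-0.16, 0.1015) or P4 replicate 4 (-0.16, 0.1039). Serpinb2 fell by 0.85 ± 0.14 (adjusted p = 2.1e-05) between P4 and P90 at a low signal, from 4.98 ± 0.13 to 4.13 ± 0.21.

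The remaining clade B genes had low or steady signals in the liver. Serpinb6b had means between 6.57 and 6.91, Serpinb12 between 4.56 and 4.85 and Serpinb7 between 3.23 and 3.69, and these 3 passed the F-test. Serpinb3, Serpinb5, Serpinb9d, Serpinb11 and Serpinb13 did not pass it, with means between 3.91 and 5.33 at every age.

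Serpinh1, the collagen chaperone HSP47 of the endoplasmic reticulum, fell in the liver. It read 10.30, 9.87, 10.30 and 10.67 at F16, 9.70, 9.56, 9.81 and 9.56 at F20, 9.88, 10.05, 9.49 and 9.75 at F22, 9.34, 9.86, 9.18 and 9.69 at P1, 9.26, 9.44, 9.02 and 9.07 at P4, and 8.29, 8.27, 8.37 and 8.12 at P90. The P4 arrays were below all F16 arrays and the adult arrays were below all others. It fell by 0.63 ± 0.15 (adjusted p = 0.0037) from F16 to F20, fell by 1.09 ± 0.15 (adjusted p = 1.1e-06) from F16 to P4 and fell by 0.93 ± 0.15 (adjusted p = 1.4e-05) from P4 to P90. Of 16 measured genes of collagens and their folding enzymes, 9 fell and 2 rose from F16 to P4 with a median of -0.33, including Plod2 (-1.22), Col1a1 (-1.16), P4ha1 (-1.11) and Fkbp10 (-1.05), and the 2 that rose were P4hb (0.40) and Plod1 (0.38). Of 11 fibroblast markers, 8 fell and 2 rose over the same span, with a median of -0.49, while the log2 of their summed signal went from 12.86 to 13.54 at F16 to 13.72 to 13.80 at P4 and 14.04 to 14.13 at P90. At P90 the means of Col1a1, Col1a2 and Col3a1 were 8.39, 8.57 and 8.62, so other genes of the list made up most of that sum. The part of fibroblasts in the Serpinh1 level was not tested.

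Protease nexin-1 (Serpine2), a cell-bound inhibitor of thrombin and urokinase, read 7.79, 7.61, 7.45 and 8.06 at F16, 7.05, 7.24, 7.0004 and 7.02 at F20, 7.37, 7.39, 7.20 and 7.28 at F22, 7.85, 8.07, 7.99 and 7.84 at P1, 7.89, 7.69, 7.87 and 7.72 at P4, and 7.72, 7.62, 7.59 and 7.61 at P90. The F20 and F22 arrays were below all P1 arrays. It fell by 0.65 ± 0.09 (adjusted p = 2.2e-05) from F16 to F20 and rose by 0.63 ± 0.09 (adjusted p = 1.0e-05) from F22 to P1, leaving a difference of 0.07 ± 0.09 (adjusted p = 0.5893) between F16 and P4. Neuroserpin (Serpini1), the tissue plasminogen activator inhibitor of neurons, read 5.64, 5.69, 5.69 and 5.50 at F16, 5.32, 5.29, 5.71 and 5.52 at F20, 5.42, 5.57, 5.44 and 5.46 at F22, 5.27, 5.26, 5.50 and 5.51 at P1, 5.64, 5.55, 5.34 and 5.49 at P4, and 5.64, 5.88, 5.64 and 5.66 at P90. It passed the F-test, but its ages lay close together, with time point means between 5.38 and 5.71. Serpini2, a serpin of the pancreas, read 4.22, 4.61, 4.29 and 4.10 at F16, 4.28, 4.18, 5.51 and 4.22 at F20, 4.01, 4.13, 4.35 and 4.17 at F22, 4.21, 4.33, 4.29 and 4.36 at P1, 4.35, 4.26, 4.23 and 4.44 at P4, and 4.07, 4.33, 4.31 and 4.41 at P90. It did not pass the F-test, and apart from F20 replicate 3 at 5.51 all its arrays lay between 4.01 and 4.61.

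In the muscle samples, 23 of the 36 serpins differed over the 6 ages, beside 75.0% of all probe sets. From F16 to P4, 15 rose and 4 fell, beside 26.7% and 35.0%, with a median change of 0.11 against -0.04 over all probe sets. The rises were early: 9 rose and 4 fell from F16 to F18 (14.1% and 19.3% of all probe sets), and 11 rose and 1 fell from F18 to F20 (14.6% and 15.9%). From F20 to F22, 0 rose and 1, Serpini1, fell (6.02% and 13.8%), while 6 rose at an unadjusted p of at most 0.05. This step depended on single arrays: in the limma fit without F16 replicate 5, F20 replicates 4 and 5 and F22 replicate 5, 6 rose (Serpina3l, Serpinb7, Serpinb8, Serpinb13, Serpinf1 and Serping1) and 1, Serpinb11, fell, whereas Serpini1 was not called. Without F20 replicate 4 alone 4 rose, and without F22 replicate 5 alone 2 rose. From F22 to P1, 2 rose, Serpina9 and Serpinb6a, and 1, Serpinb10, fell (9.50% and 8.82%). From P1 to P4, 4 rose and 7 fell (19.2% and 14.7%).

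The largest rises in the muscle samples belonged to a cluster of clade B genes on chromosome 13. These neighbours, Serpinb5, Serpinb12, Serpinb13, Serpinb3, Serpinb11, Serpinb7, Serpinb2, Serpinb10 and Serpinb8, include several that are made by keratinocytes and other squamous epithelia, and all 9 passed the F-test. Serpinb12 read 6.35, 6.37, 5.70, 5.98 and 5.56 at F16, 7.90, 7.76, 7.60, 7.87 and 8.68 at F18, 11.88, 11.67, 11.60, 11.92 and 11.96 at F20, 12.20, 12.31, 12.14, 12.31 and 10.59 at F22, 11.41, 11.17, 11.93, 11.64 and 10.61 at P1, and 9.39, 9.299, 9.25, 10.004 and 10.51 at P4. Its F20 arrays were all above the F18 arrays, and at F22 replicate 5 stood below the rest. It rose by 1.97 ± 0.29 (adjusted p = 4.9e-06) from F16 to F18 and by 3.84 ± 0.29 (adjusted p = 1.4e-10) from F18 to F20, and fell by 1.66 ± 0.29 (adjusted p = 5.0e-05) from P1 to P4.

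Maspin (Serpinb5), an epithelial serpin that does not inhibit proteases, read 6.58, 6.42, 6.35, 6.38 and 5.76 at F16, 9.56, 9.21, 9.16, 9.16 and 9.88 at F18, 10.77, 10.83, 10.77, 10.54 and 10.55 at F20, 10.87, 11.07, 11.15, 11.06 and 9.59 at F22, 10.28, 10.003, 10.67, 10.41 and 9.55 at P1, and 9.80, 9.83, 9.77, 10.02 and 10.44 at P4. Its main rise was the first, with all F18 arrays above all F16 arrays. It rose by 3.10 ± 0.23 (adjusted p = 5.2e-11) from F16 to F18 and by 1.2998 ± 0.23 (adjusted p = 7.8e-05) from F18 to F20, and the change from P1 to P4 was -0.21 ± 0.23 (adjusted p = 0.5374). Serpinb2, plasminogen activator inhibitor 2, read 4.95, 5.01, 5.38, 5.09 and 4.92 at F16, 6.15, 5.97, 5.76, 6.17 and 6.38 at F18, 9.46, 9.24, 9.39, 9.19 and 9.02 at F20, 9.41, 9.37, 9.58, 9.62 and 7.70 at F22, 9.16, 8.74, 9.66, 9.10 and 8.35 at P1, and 7.83, 7.76, 7.56, 8.28 and 8.87 at P4. All arrays from F20 on were above all F18 arrays. It rose by 1.02 ± 0.27 (adjusted p = 0.0044), then by 3.17 ± 0.27 (adjusted p = 1.5e-09), and fell by 0.94 ± 0.27 (adjusted p = 0.0078) from P1 to P4.

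Megsin (Serpinb7) read 5.37, 5.18, 5.40, 5.34 and 4.998 at F16, 6.76, 6.80, 6.47, 6.29 and 7.49 at F18, 9.59, 9.06, 8.88, 10.34 and 10.06 at F20, 9.94, 10.53, 10.11, 10.42 and 8.50 at F22, 9.64, 9.37, 10.45, 9.57 and 8.58 at P1, and 7.84, 7.69, 7.93, 8.48 and 9.13 at P4. The F16 and F18 arrays did not overlap, and the F20 arrays were above both. Its rises were 1.504 ± 0.35 (adjusted p = 0.0012) and 2.83 ± 0.35 (adjusted p = 5.0e-07), and its change from P1 to P4 was -1.31 ± 0.35 (adjusted p = 0.0040). Serpinb10 read 5.90, 5.50, 5.45, 5.42 and 5.42 at F16, 7.29, 7.19, 7.08, 7.22 and 7.82 at F18, 10.29, 10.20, 10.01, 9.91 and 9.91 at F20, 9.87, 10.31, 10.18, 10.39 and 8.66 at F22, 9.19, 8.85, 9.21, 9.26 and 8.29 at P1, and 7.47, 7.64, 7.25, 7.39 and 7.69 at P4. It had its highest mean at F20 and its F18 and P4 arrays overlapped. It rose by 1.78 ± 0.22 (adjusted p = 4.9e-07) and 2.74 ± 0.22 (adjusted p = 5.8e-10), and fell by 0.92 ± 0.22 (adjusted p = 0.0037) from F22 to P1 and fell by 1.47 ± 0.22 (adjusted p = 8.9e-06) from P1 to P4.

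Serpinb8 read 6.14, 6.10, 6.34, 6.57 and 6.31 at F16, 7.503, 7.30, 7.07, 7.12 and 7.67 at F18, 8.48, 8.49, 8.39, 9.11 and 8.78 at F20, 9.13, 9.40, 9.56, 9.74 and 7.99 at F22, 8.73, 8.48, 8.98, 8.69 and 8.11 at P1, and 7.996, 8.12, 8.16, 8.11 and 8.48 at P4. Every F18 array was above every F16 array and below every F20 array. It rose by 1.04 ± 0.22 (adjusted p = 4.3e-04) and 1.32 ± 0.22 (adjusted p = 3.0e-05). Headpin (Serpinb13), an inhibitor of lysosomal cathepsins in keratinocytes, read 5.57, 5.83, 5.43, 5.73 and 5.52 at F16, 5.33, 5.91, 5.56, 5.96 and 5.61 at F18, 7.10, 7.38, 7.24, 7.41 and 7.54 at F20, 8.12, 7.90, 8.04, 8.25 and 6.75 at F22, 7.33, 7.31, 7.58, 7.34 and 6.74 at P1, and 6.56, 6.43, 6.17, 6.77 and 7.26 at P4. The F16 and F18 arrays overlapped and the F20 arrays were all higher, a rise of 1.66 ± 0.21 (adjusted p = 7.6e-07). Serpinb3 and Serpinb11, the other members of the cluster, rose by 0.45 ± 0.11 (adjusted p = 0.0018) and 0.53 ± 0.11 (adjusted p = 4.9e-04) from F18 to F20 at means below 6.

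F22 replicate 5 was the lowest F22 array for each of these 9 genes. Without it, the changes from F22 to P1 passed the threshold as falls for Serpinb12 (-0.89, adjusted p = 0.0098), Serpinb13 (-0.82, 6.6e-04), Serpinb5 (-0.86, 0.0011) and Serpinb8 (-0.86, 2.5e-04), where the values with it were -0.56, -0.55, -0.57 and -0.57. Without that array Serpinb13 rose by 0.75 (adjusted p = 0.0024) and Serpinb8 by 0.81 (adjusted p = 8.6e-04) from F20 to F22, and Serpinb8 fell by 0.42 (adjusted p = 0.0299) from P1 to P4. Leaving out P1 replicate 3 brought the falls from F22 to P1 of Serpinb13 (-0.63, 0.0491), Serpinb5 (-0.69, 0.0465) and Serpinb8 (-0.66, 0.0434) past the threshold, and leaving out F20 replicate 4 did so for the rise of Serpinb8 from F20 to F22 (0.63, 0.0478). Leaving out P4 replicate 5 did so for the fall of Serpinb13 from F22 to P1, at an unchanged -0.55 (adjusted p = 0.0498).

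Keratinocyte markers rose with the cluster. Of 9 measured of 15 listed, 7 rose from F16 to F18, 6 from F18 to F20 and 9 from F16 to P4, with a median of 1.83 over that span. The log2 of their summed signal was 12.10 to 12.88 at F16, 14.45 to 14.82 at F18, 15.08 to 15.33 at F20, 15.13 to 15.63 at F22, 15.09 to 15.60 at P1 and 14.81 to 15.24 at P4. Keratin 1 (Krt1) had means of 8.96, 12.75, 13.38, 13.65, 13.48 and 12.97 and keratin 10 (Krt10) of 9.48, 12.95, 13.54, 13.75, 13.64 and 13.18 at those ages. At F22 the lowest sum, 15.13, was that of replicate 5, at P1 the lowest was that of replicate 5, and at P4 the highest was that of replicate 5, and Serpinb12 was lowest, lowest and highest in the same arrays. In the liver, Krt1 means stayed between 5.38 and 5.86, while Krt10 means lay between 7.02 at F16 and 8.53 at P4. The keratinocyte sum there was 10.51 to 10.84 at F16 and 11.27 to 11.57 at P1. In that tissue 1 of the 9 serpins of the cluster, Serpinb10, rose at a step up to P1. The part of skin or other epithelial cells in the muscle levels was not tested.

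**Figure D4:**
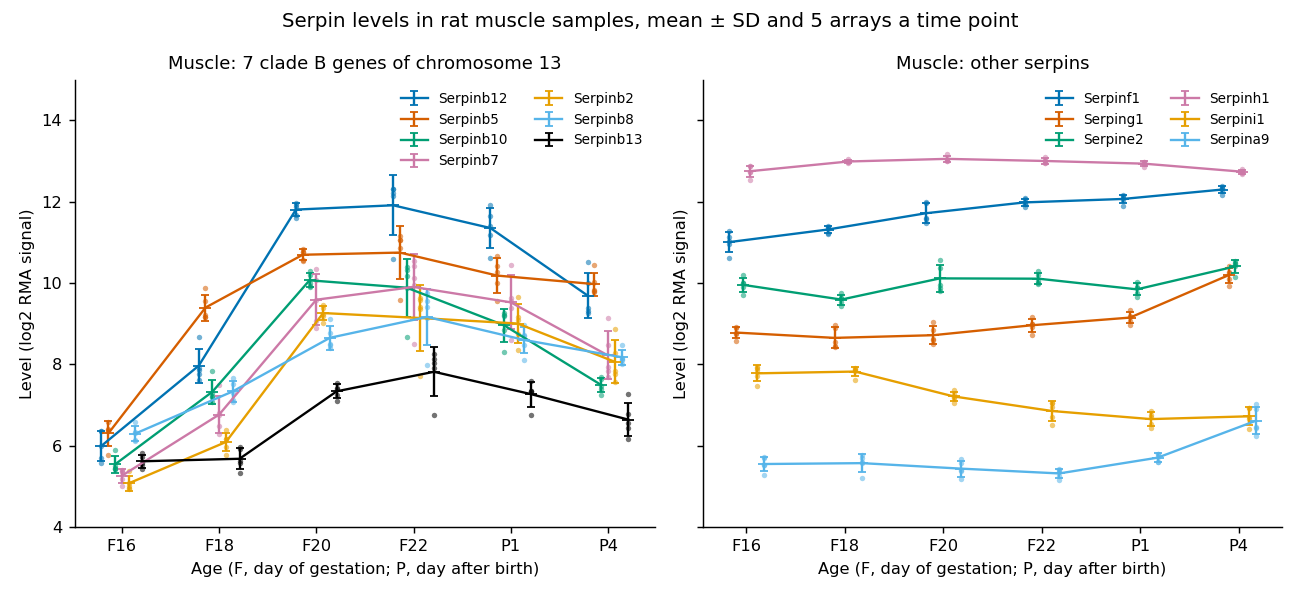
Levels in the muscle samples (log2 RMA signal) by age for 7 clade B genes of chromosome 13 (left) and for 6 serpins outside that cluster (right); small points are the 5 arrays of an age and bars are the mean ± SD. The clade B genes reach their highest means at F20 or F22 and are lower at P4, and the low array of each at F22 is replicate 5.

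Serpinb1a, which lies on chromosome 17, had its highest mean at P1, whereas the genes of the cluster had theirs at F20 or F22. It read 8.90, 8.28, 8.59, 8.68 and 8.11 at F16, 9.64, 9.84, 9.50, 9.72 and 10.04 at F18, 10.04, 10.15, 9.89, 9.64 and 9.66 at F20, 10.23, 9.82, 10.66, 10.01 and 9.32 at F22, 10.39, 10.29, 10.31, 10.26 and 10.18 at P1, and 9.92, 10.43, 10.02, 10.18 and 10.18 at P4. The F18 arrays were all above the F16 arrays, and the F22 arrays overlapped those of every age from F18 on. It rose by 1.24 ± 0.17 (adjusted p = 1.7e-06) from F16 to F18, and from F16 to P4 by 1.64 ± 0.17 (adjusted p = 1.1e-09). F16 replicate 5, F22 replicate 5 and P1 replicate 5 were the lowest of their ages in Serpinb1a and in the keratinocyte sum. F16 replicate 1 and F18 replicate 5 were the highest in both. At P4 replicate 2 was the highest in Serpinb1a and replicate 5 in the keratinocyte sum. The part of epithelial cells in the Serpinb1a level was not tested. Neutrophil granule markers were low until P1, with log2 sums of 10.17 to 11.17, and stood at 12.33 to 12.97 at P4. Serpinb6a rose by 0.38 ± 0.10 (adjusted p = 0.0068) from F22 to P1 and by 0.49 ± 0.10 (adjusted p = 9.3e-05) from F16 to P4, and Serpinb6b by 0.24 ± 0.07 (adjusted p = 0.0037) over the latter span. Serpinb9 passed the F-test with means between 8.07 and 8.49. Serpinb9d did not pass the F-test.

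The plasma serpins of the liver were uneven between muscle arrays of the same age. Serpina6 read 10.38, 10.18, 6.77, 9.68 and 6.58 at F16, 6.90, 7.43, 7.12, 8.73 and 6.80 at F18, 6.86, 6.83, 7.03, 7.43 and 7.93 at F20, 6.76, 6.995, 6.64, 6.61 and 6.82 at F22, 6.50, 6.70, 6.80, 6.66 and 6.64 at P1, and 6.46, 6.50, 6.74, 6.81 and 6.49 at P4. At F16 replicates 1, 2 and 4 were high and replicates 3 and 5 lay at the levels of P4. It fell by 2.11 ± 0.50 (adjusted p = 5.6e-04) from F16 to P4 and fell by 1.32 ± 0.50 (adjusted p = 0.0438) from F16 to F18. The latter was not called without F16 replicate 1 (-0.91, adjusted p = 0.1766), 2 (-0.95, 0.1624) or 4 (-1.08, 0.1312), nor without F18 replicate 1 (-1.20, 0.0955), 2 (-1.33, 0.0660), 3 (-1.25, 0.0824) or 5 (-1.17, 0.1053). Serpinf2 read 8.51, 8.55, 7.54, 8.22 and 7.53 at F16, 7.55, 7.66, 7.41, 7.90 and 7.57 at F18, 7.40, 7.37, 7.33, 7.59 and 7.78 at F20, 7.36, 7.61, 7.45, 7.29 and 7.52 at F22, 6.91, 7.495, 7.503, 7.49 and 7.17 at P1, and 7.31, 7.36, 8.03, 7.41 and 7.52 at P4. The same 3 arrays were the highest at F16, and P4 replicate 3 was the highest of its age. It fell by 0.54 ± 0.17 (adjusted p = 0.0070) from F16 to P4.

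Hepatocyte markers were uneven in the same arrays. The log2 of their summed signal at F16 was 13.23, 13.08 and 12.68 in replicates 1, 2 and 4 and 10.81 and 10.63 in replicates 3 and 5. It was 13.10 in F18 replicate 4 against 11.16 to 11.73 in the other F18 arrays, 12.70 and 13.31 in F20 replicates 4 and 5 against 11.19 to 11.29, 13.16 in F22 replicate 2 against 11.66 to 12.04, and 13.68 in P4 replicate 3 against 11.90 to 12.85. None of the 12 hepatocyte markers was called from F16 to F18 and 3 rose from F16 to P4. In F16 replicates 3 and 5 Serpina6 read 6.77 and 6.58, within the P4 range of 6.46 to 6.81. P4 replicate 3 lay in that range too, and its hepatocyte sum was above those of all F16 arrays. In the liver arrays the Serpina6 mean was 8.65 at P4 against 13.28 at F16. The part of liver RNA in the muscle levels was not tested.

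**Figure D5:**
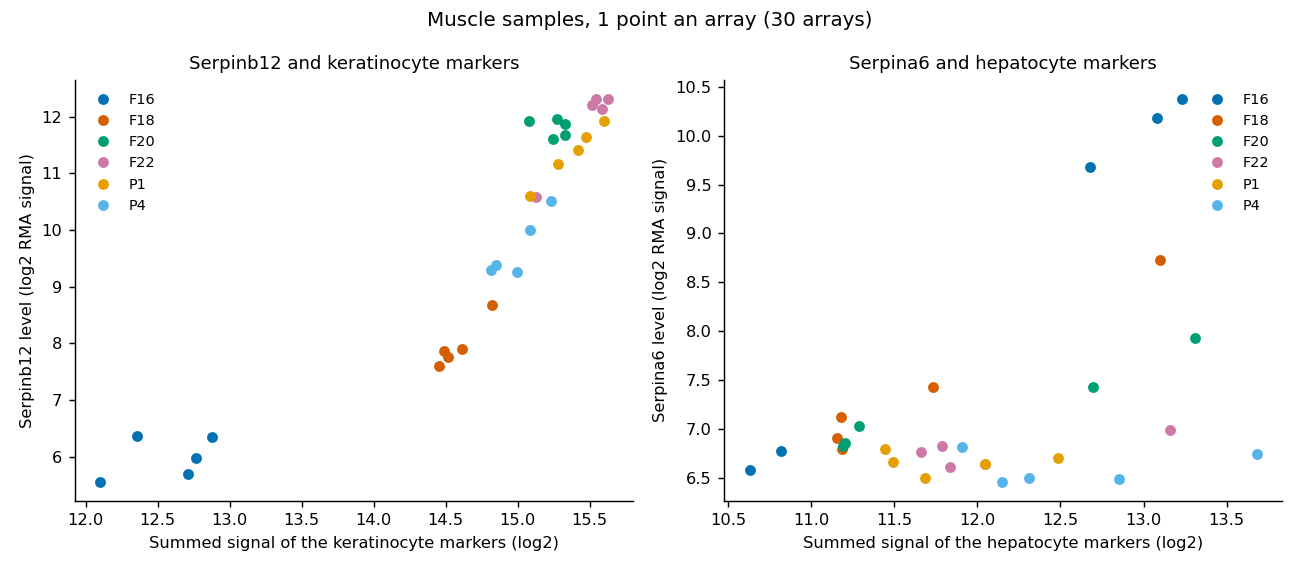
Each point is 1 of the 30 muscle arrays, coloured by age; the left panel sets the Serpinb12 level against the log2 summed signal of 9 keratinocyte markers and the right panel the Serpina6 level against that of 12 hepatocyte markers. Serpinb12 is low in the F16 arrays, whose keratinocyte sums reach 12.88 at most, and the 3 highest Serpina6 levels are those of the F16 arrays with hepatocyte sums of 12.68 to 13.23. The arrays with the highest hepatocyte sums of F20 (13.31), F22 (13.16) and P4 (13.68) have lower Serpina6 levels than those 3. In the liver arrays, not shown here, the Serpina6 mean was 8.65 at P4 against 13.28 at F16.

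Antithrombin and heparin cofactor II did not pass the F-test in muscle. Serpinc1 read 7.75, 7.49, 6.94, 7.55 and 7.15 at F16, 6.96, 7.15, 6.95, 7.39 and 6.89 at F18, 6.93, 6.88, 6.86, 7.32 and 7.64 at F20, 7.02, 7.32, 7.17, 7.003 and 7.16 at F22, 6.88, 7.22, 7.03, 6.94 and 7.05 at P1, and 7.02, 7.05, 7.80, 6.78 and 7.33 at P4. Serpind1 read 7.14, 7.43, 6.71, 6.96 and 6.67 at F16, 6.67, 6.62, 6.60, 7.01 and 6.60 at F18, 6.63, 6.61, 6.45, 6.78 and 7.07 at F20, 6.65, 6.92, 6.60, 6.81 and 6.72 at F22, 6.51, 6.74, 6.77, 6.74 and 6.64 at P1, and 6.63, 6.45, 7.21, 6.74 and 6.77 at P4. In both, P4 replicate 3 was the highest of its age and F16 replicates 3 and 5 were the lowest of theirs. Without P4 replicate 3, Serpind1 fell by 0.34 (adjusted p = 0.0224) from F16 to P4, where the value with it was -0.22 ± 0.13 (adjusted p = 0.1433). Serpina1 ran from 6.63 to 9.52 over the 30 arrays and did not pass the F-test. Serpina3n rose by 0.71 ± 0.21 (adjusted p = 0.0051) from F16 to P4, with 8.26 in P4 replicate 3 and 6.47 to 7.45 in the other P4 arrays, and without that array the rise was 0.41 (adjusted p = 0.0237). Serpina3c, Serpina3l, Serpina3m, Serpina5, Serpina7, Serpina10, Serpina16 and Serpina1f did not pass the F-test, and Serpina4 passed it with means between 5.94 and 6.29.

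The serpins that many stromal cells secrete rose in the muscle samples. Serpinf1 read 11.13, 10.96, 11.29, 10.61 and 11.04 at F16, 11.21, 11.34, 11.41, 11.23 and 11.37 at F18, 11.56, 11.59, 11.46, 11.98 and 11.98 at F20, 11.94, 11.86, 12.09, 11.95 and 12.06 at F22, 12.13, 12.05, 12.10, 11.89 and 12.16 at P1, and 12.35, 12.34, 12.16, 12.37 and 12.26 at P4. Its P4 arrays were above all foetal arrays. It rose by 0.40 ± 0.10 (adjusted p = 0.0025) from F18 to F20 and by 1.29 ± 0.10 (adjusted p = 2.8e-12) from F16 to P4. The step from F18 to F20 was not called without the arrays left out together in the muscle step counts above (0.23, adjusted p = 0.1105). In that fit Serpinf1 rose from F20 to F22 by 0.42 (adjusted p = 0.0048). Serping1 read 8.93, 8.76, 8.90, 8.74 and 8.57 at F16, 8.54, 8.89, 8.42, 8.96 and 8.44 at F18, 8.59, 8.49, 8.62, 9.04 and 8.83 at F20, 8.999, 8.73, 9.001, 8.91 and 9.16 at F22, 9.07, 9.34, 8.97, 9.18 and 9.17 at P1, and 10.24, 10.42, 9.92, 10.10 and 10.27 at P4. Arrays up to P1 overlapped and those of P4 were all higher, a rise of 1.04 ± 0.11 (adjusted p = 4.3e-08) from P1 to P4. From F16 to P4 Serping1 rose by 1.41, C1r by 2.12 and C1s by 1.20. Protease nexin-1 (Serpine2) read 9.89, 9.99, 10.001, 9.70 and 10.19 at F16, 9.62, 9.64, 9.75, 9.53 and 9.42 at F18, 9.95, 9.87, 9.81, 10.56 and 10.37 at F20, 10.20, 10.05, 10, 9.98 and 10.29 at F22, 10.04, 9.75, 9.87, 9.65 and 9.90 at P1, and 10.45, 10.49, 10.14, 10.54 and 10.41 at P4. It was lowest at F18 and highest at P4, with changes of -0.36 ± 0.12 (adjusted p = 0.0158), 0.52 ± 0.12 (adjusted p = 9.6e-04) and 0.57 ± 0.12 (adjusted p = 3.5e-04) in the steps that passed the threshold. In the same fit as given above for Serpinf1, the Serpine2 change from F18 to F20 was 0.29 (adjusted p = 0.0287). Fibroblast and macrophage markers rose over the same ages. Of 11 fibroblast markers, 10 rose from F16 to P4 with a median of 1.20, and the log2 of their summed signal went from 14.99 to 15.37 at F16 to 16.10 to 16.21 at P4. Of 10 measured macrophage markers, 8 rose with a median of 1.21, and their sum went from 11.07 to 11.36 at F16 to 12.34 to 12.67 at P4. The part of these cells in the rises was not tested.

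Serpinh1 varied little in muscle. It read 12.74, 12.72, 12.87, 12.54 and 12.88 at F16, 12.98, 12.94, 12.99, 12.98 and 13.05 at F18, 13.001, 13.03, 13.002, 13.05 and 13.18 at F20, 12.99, 13.01, 13.10, 12.95 and 12.94 at F22, 12.98, 12.84, 12.95, 12.93 and 12.98 at P1, and 12.75, 12.81, 12.74, 12.70 and 12.68 at P4. The arrays of F18 were above all those of F16, and the arrays of P4 were below all those of F18 to P1. It rose by 0.24 ± 0.05 (adjusted p = 6.6e-04) from F16 to F18, fell by 0.20 ± 0.05 (adjusted p = 0.0037) from P1 to P4, and differed by -0.01 ± 0.05 (adjusted p = 0.8648) between F16 and P4. Of the 16 collagen and folding genes, 14 rose from F16 to F18 and 6 fell from P1 to P4, and from F16 to P4 10 rose and 3 fell. Col1a1 changed by 1.77, Col3a1 by 1.57, Col1a2 by 1.49 and Col5a2 by 0.93, and the 3 that fell were Plod2 (-0.64), P4ha1 (-0.30) and Ppib (-0.17).

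Neuroserpin (Serpini1) fell in the muscle samples. It read 7.87, 7.91, 7.93, 7.71 and 7.46 at F16, 7.90, 7.88, 7.87, 7.62 and 7.83 at F18, 7.20, 7.16, 7.36, 7.06 and 7.27 at F20, 7.04, 7.06, 6.50, 6.95 and 6.70 at F22, 6.75, 6.54, 6.85, 6.69 and 6.43 at P1, and 6.71, 6.40, 6.92, 6.93 and 6.64 at P4. The F16 and F18 arrays were above all later arrays. It fell by 0.61 ± 0.11 (adjusted p = 9.3e-05) from F18 to F20 and fell by 1.06 ± 0.11 (adjusted p = 1.4e-09) from F16 to P4. The fall from F20 to F22, -0.36 ± 0.11 (adjusted p = 0.0208), was not called without F20 replicate 3 (-0.32, adjusted p = 0.0609), F22 replicate 3 (-0.27, 0.0839) or F22 replicate 5 (-0.32, 0.0590). Serpina9, a serpin of germinal centre B cells, read 5.53, 5.69, 5.72, 5.52 and 5.27 at F16, 5.70, 5.77, 5.56, 5.21 and 5.59 at F18, 5.37, 5.67, 5.56, 5.16 and 5.39 at F20, 5.15, 5.41, 5.35, 5.24 and 5.40 at F22, 5.80, 5.71, 5.60, 5.59 and 5.80 at P1, and 6.44, 6.90, 6.22, 6.47 and 7.03 at P4. The P4 arrays were above all others. It rose by 0.91 ± 0.12 (adjusted p = 1.6e-06) from P1 to P4 and by 0.39 ± 0.12 (adjusted p = 0.0257) from F22 to P1, the latter not called without F22 replicate 1 (0.35, adjusted p = 0.0719) or 4 (0.37, 0.0586) or without P1 replicate 1 (0.36, 0.0604) or 5 (0.36, 0.0601). Serpini2 read 4.74, 4.72, 4.82, 4.99 and 4.85 at F16, 4.66, 4.99, 4.73, 4.57 and 4.62 at F18, 4.66, 4.50, 4.77, 4.80 and 4.69 at F20, 4.72, 4.63, 4.71, 4.82 and 4.91 at F22, 4.68, 4.80, 4.70, 4.84 and 4.81 at P1, and 4.76, 5.06, 5.09, 4.93 and 4.84 at P4. It did not pass the F-test, and its arrays lay between 4.50 and 5.09.

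Among the listed partners of serpins in the muscle samples, 10 of 22 target proteases rose from F16 to P4 and 0 fell, with a median of 0.17, 12 of 25 other inhibitors rose and 0 fell, with a median of 0.36, and 9 of 12 partners and receptors rose and 0 fell, with a median of 1.07. The genes with the largest changes were C1r, given above, urokinase (Plau, 1.79) and matriptase (St14, 1.56) among the proteases, the kininogens Kng1 (2.39) and Kng2 (2.18) among the inhibitors, and tissue factor (F3, 2.04), Agtr1a (1.99), Ace (1.62) and Plxdc1 (1.54) among the partners and receptors. Of the 14 acute phase proteins, 7 rose and 0 fell, with a median of 0.32.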

How the data were processed

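RNA of Wistar rat liver (24 arrays) and hind limb skeletal muscle (30 arrays) was measured on the GeneChip Rat Gene 1.0 ST array. The deposited values are log2 signals that the authors made with Affymetrix Expression Console by robust multi-array averaging; per the labels no replicates were pooled, and the software version is not stated. All 54 columns were used and 0 columns were left unmapped. Gene symbols came from the GEO platform annotation: of 29214 probe sets, 15310 carried 1 symbol (14506 genes), 323 several and 13581 none, and 2 serpin probe sets with 2 symbols each were left out. All 36 member symbols were found in RefSeq and 0 had changed.

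Linear models without covariates were fitted to each tissue on its own (R 4.3.3 and its package limma 3.58.1, functions lmFit and eBayes), as an F-test over the 6 ages and as contrasts between ages. P-values were adjusted by Benjamini-Hochberg over the 15310 probe sets, with an adjusted p of at most 0.05 as the threshold. The fit was tested on simulated data. Array values are given for the 12 serpins with the widest range of age means among those called in each tissue and for clades C to I. From each gene list up to 4 genes with the largest F16 to P4 change were named, and the genes that fell or rose against a list, C1r, C1s, Lcn2, Orm1, Crp and Agt were named after their values were seen. The members and lists were chosen with earlier results of these data known. Marker levels are the log2 of summed linear signals. The number of arrays limits the precision. No 2 columns held identical values. Promoters were compared with Biopython 1.88, and tables and plots were made with Python 3.11.15, pandas 2.3.3, NumPy 2.4.6 and Matplotlib 3.10.9. Alternatives were another prior, normalisation, centring, filter, threshold, set of ages, array weights, a replicate block and leaving out arrays. Serpins without a probe set of a single symbol and protein sequences were not analysed here.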

Additional observations from a re-analysis of the deposited data

Results flagged for a closer look

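Groups of 4 or 5 arrays were examined, 1 for each age of the 19 serpins of a tissue whose array values are given above. Of 228 groups, 18 (7.89%) held an array that lay apart from the rest by Dixon's criterion. Chance alone gives about 5% in independent groups. These groups were not independent, because the same arrays recur for every serpin of a tissue, so the share does not measure an excess over chance.

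In the liver, Serpinb1a read 12.28 in F22 replicate 4, with the nearest array at 11.60. Serpini2 read 5.51 in F20 replicate 3 (nearest 4.28), and Serpina3m read 5.37 in P1 replicate 1 (nearest 5.78). Serpina3c read 5.32 in F16 replicate 2 (nearest 5.56), and Serpini1 read 5.88 in P90 replicate 2 (nearest 5.66).

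In the muscle samples, F22 replicate 5 was low for Serpinb12 (10.59, nearest 12.14), Serpinb13 (6.75, nearest 7.90), Serpinb2 (7.70, nearest 9.37), Serpinb5 (9.59, nearest 10.87) and Serpinb7 (8.50, nearest 9.94). Its keratinocyte sum of 15.13 was the lowest of that age, against 15.52 to 15.63 in the other arrays. F18 replicate 5 was high for Serpinb12 (8.68, nearest 7.90) and Serpinb10 (7.82, nearest 7.29), and its keratinocyte sum of 14.82 was the highest of F18. F16 replicate 5 was low for Serpinb5 (5.76, nearest 6.35), with the lowest keratinocyte sum of F16 at 12.10, and F16 replicate 1 was high for Serpinb10 (5.90, nearest 5.50), with the highest at 12.88. The part of epithelial cells in these values was not tested.

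F18 replicate 4 of the muscle, whose hepatocyte sum of 13.10 was the highest of that age, was high for Serpind1 (7.01, nearest 6.67) and low for Serpini1 (7.62, nearest 7.83). P4 replicate 3, with the highest hepatocyte sum of its age at 13.68, was high for Serpinf2 (8.03, nearest 7.52). F20 replicate 5 was high for Serpinh1 (13.18, nearest 13.05).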

How the results depend on the processing

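Restricting the test to probe sets above the median signal left 17 serpins to test in the liver and 8 in the muscle samples, so counts fell by construction: the F-test called 17 in the liver in place of 29 and 8 in the muscle in place of 23, the liver falls from P4 to P90 went from 9 to 5, and in the muscle the rises from F16 to P4 went from 15 to 7, the falls from 4 to 0, the rises from F22 to P1 from 2 to 1 and the falls from 1 to 0. Array weights gave 2 in place of 4 liver falls from F22 to P1. The muscle falls from F22 to P1, 1 in the analysis as reported, numbered 10 with array weights, 6 at an unadjusted p of at most 0.05 and 6 without F16 replicate 5, F20 replicates 4 and 5 and F22 replicate 5, arrays that were set aside after seeing the data. The cause was not tested. Fits without single arrays are given further below. Under the remaining settings the F-test counts and those from F16 to P4, F22 to P1 and P4 to P90 stayed within 1.5 times those reported. No change from F16 to P4 that passed the threshold turned its direction. Changes that had not passed it, and those of other steps, were not compared for direction.

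Shorter steps depended more on the setting. In the muscle, rises from F20 to F22, 0 as reported, numbered 8 with array weights, 6 at an unadjusted p, 6 without the same 4 arrays and 1 each with the replicate block, with quantile normalisation and above the median signal. Falls at that step, 1 as reported, numbered 3 with array weights and 0 above the median signal. Muscle falls from F18 to F20, 1 as reported, numbered 3 with array weights and 2 without the 4 arrays, and the rises from P1 to P4, 4 as reported, numbered 7 at an unadjusted p. Muscle falls from F16 to F18 went from 4 to 2 and liver falls from F16 to F20 from 5 to 3 when p-values were adjusted over all probe sets, named or not, and the latter were also 3 with centring, with quantile normalisation and with the adult arrays left out. Leaving out single arrays gave 0 to 4 muscle rises and 0 to 1 falls from F20 to F22, 2 to 5 muscle falls from F16 to F18 and 3 to 6 liver falls from F16 to F20. Liver falls from F20 to F22, 1 as reported, numbered 2 at an unadjusted p and without F22 replicate 2. The restriction to probe sets above the median signal lowered further step counts, again by construction.

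Leaving out each array in turn gave, in the liver, 28 to 30 serpins in the F-test, 16 to 19 rising and 2 to 3 falling from F16 to P4, 8 to 10 rising and 2 to 5 falling from F22 to P1, and 9 to 11 rising and 8 to 9 falling from P4 to P90. In the muscle it gave 23 to 25 in the F-test, 15 to 15 rising and 3 to 5 falling from F16 to P4, and 1 to 2 rising and 1 to 5 falling from F22 to P1, with 5 reached without F22 replicate 5. The rise of Serpina5 from F16 to P4 in the liver was not called under 4 of the other settings.

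Replicate numbers did not pair the samples: deviations of same-numbered arrays correlated between -0.19 and 0.21 in the liver and between -0.31 and 0.24 in the muscle. With the replicate block, the F-test called 29 serpins in the liver and 23 in the muscle, 18 rose and 3 fell from F16 to P4 in the liver and 15 and 4 in the muscle, and from F22 to P1 the liver had 9 rises and 4 falls and the muscle 2 and 1. The liver counts from P4 to P90 with the block were 10 and 9.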

Other observations

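Angiotensinogen (Agt) is a serpin by descent without the name, so it lay outside the rule for members and was looked at after its values were seen. In the liver its means were 9.03 at F16, 10.03 at F20, 10.71 at F22, 12.48 at P1, 12.54 at P4 and 12.10 at P90, with SDs of 0.08 to 0.18 (n = 4 at each age). The P1 arrays, at 12.23 to 12.63, all lay above the F22 arrays, at 10.56 to 10.85. In the muscle samples its means were 7.51 at F16, 7.42 at F18, 7.29 at F20, 7.42 at F22, 8.20 at P1 and 8.09 at P4, and the P1 arrays were spread from 7.51 to 8.78.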
